A study of Mus musculus with 30 samples.

Results

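The macrophage and monocyte genes described here are 31 genes that mark cells of the mononuclear phagocyte lineage or equip them for their work, chosen by symbol through the gene annotation of the array platform. Of these 31 genes, 29 were measured, among 22139 transcript clusters tested in the series. *Cd68*, an endosomal glycoprotein of macrophages, and *Clec7a*, the beta-glucan receptor dectin-1, were matched to no transcript cluster and have no values here. The question is which of these genes changed in the kidney after aristolochic acid I (AAI), a plant nephrotoxin and carcinogen, and whether the change depended on the tumour suppressor gene Trp53.

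Kidney RNA of 30 male mice on a C57BL/6 background was hybridised to 30 Clariom S mouse arrays, with 5 mice in every one of the 6 groups. Mice of 9 to 11 weeks with the genotypes *Trp53(-/-)*, *Trp53(+/-)* and *Trp53(+/+)* received 3.5 mg AAI per kg body weight, or water as controls, by intraperitoneal injection on 6 days in a row, and tissue was taken 24 h after the last injection. In *Trp53(-/-)* mice both copies of Trp53, and in *Trp53(+/-)* mice a single copy, carry a neomycin cassette in place of functional sequence, in every cell of the body from the germline on. A portion of each kidney was taken, without sorting of cells. Expression is given as the deposited log2 signal, on which a step of 1 means a 2-fold difference. In bulk tissue, a change in the number of cells of a type and a change in RNA per cell cannot be told apart, for rises as for falls. Values of Trp53 itself were not used here.

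Monocytes leave the blood and become macrophages in inflamed tissue, where they join macrophages that already reside in the kidney. The transcription factor PU.1, the product of *Spi1*, and the receptor for colony stimulating factor 1, the product of *Csf1r*, maintain the lineage. Macrophages take up dead cells and debris through scavenger, Fc and complement receptors, signal through adaptors with immunoreceptor tyrosine-based activation motifs (ITAM), and degrade what they ingest with lysosomal proteases and lysozyme.

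Array medians lay between 5.89 and 5.99 on the log2 scale. The deposited values were already normalised, which brings medians together, so this is no test of how well the arrays compare. The mean over 10 proximal tubule genes was 10.6 to 11.3 in water kidneys. The study made its cDNA in a pair of batches. The labels do not give the batch of an array, which was read here from the methods and the colour strip of the heat map of the study, with 1 array not identified. By this reading, all *Trp53(-/-)* arrays lay in a single batch, so that AAI and water were compared within it. In *Trp53(+/-)* mice, AAI kidneys lay in the other batch than water kidneys, and batch and treatment cannot be told apart there. In *Trp53(+/+)* mice, the water arrays and 4 of the 5 AAI arrays shared a batch.

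Many of the macrophage and monocyte genes were higher after AAI, with more calls in *Trp53(-/-)* and *Trp53(+/+)* than in *Trp53(+/-)* kidneys. A gene is called here when its adjusted p is under 0.05 and its change is at least 2-fold. Of the 29 measured members, 14 were called higher in *Trp53(-/-)* kidneys, 7 in *Trp53(+/-)* kidneys and 19 in *Trp53(+/+)* kidneys. Over all 22139 transcript clusters, the share called higher was 3.33% in *Trp53(-/-)*, 0.7% in *Trp53(+/-)* and 3.37% in *Trp53(+/+)* mice. In each genotype 0 members were called lower in limma, against 2.83%, 0.79% and 2.67% of all transcript clusters. At an unadjusted p under 0.05 in limma, 0 were lower. An unmoderated 2-group test of each gene, at an unadjusted p under 0.05 with 2-fold, called 0 lower and 14, 7 and 19 higher. With Benjamini-Hochberg adjustment, a setting chosen after seeing the data, that test called 0 lower and 13, 5 and 18 higher. Shares over all transcript clusters are not given for it. With no minimum fold, 22, 14 and 22 members had a higher level at an adjusted p under 0.05 in *Trp53(-/-)*, *Trp53(+/-)* and *Trp53(+/+)* kidneys, against 15.5%, 3.53% and 15.2% of all transcript clusters. The median change of the members was 1.05 in *Trp53(-/-)*, 0.64 in *Trp53(+/-)* and 1.21 in *Trp53(+/+)* mice on the log2 scale, while the median over all transcript clusters was within 0.03 of 0.

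Every AAI array was above every water array for 17 members in *Trp53(-/-)*, 11 in *Trp53(+/-)* and 19 in *Trp53(+/+)* mice (10.5%, 4.09% and 9.71% of all transcript clusters). The mean over the 29 members separated the groups in each genotype. It ran from 6.75 to 7.37 in *Trp53(-/-)* AAI kidneys, against 5.77 to 6.24 in their water controls. The range was 6.15 to 6.99 in *Trp53(+/-)* AAI kidneys, against 5.81 to 5.96 in water kidneys, and 6.42 to 7.22 in *Trp53(+/+)* AAI kidneys, against 5.29 to 5.77 in water kidneys. Proximal tubule genes moved the other way on the same arrays. Of 10 such genes, 9 were called lower in *Trp53(-/-)*, 8 in *Trp53(+/-)* and 9 in *Trp53(+/+)* mice, and their summed linear signal was 2410 to 4780, 8030 to 13500 and 3110 to 9240 in the AAI kidneys of these genotypes, against 22700 to 25800, 22500 to 25700 and 22300 to 35200 in the water kidneys. The part of this loss in the members' rise was not tested.

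**Figure D1:**
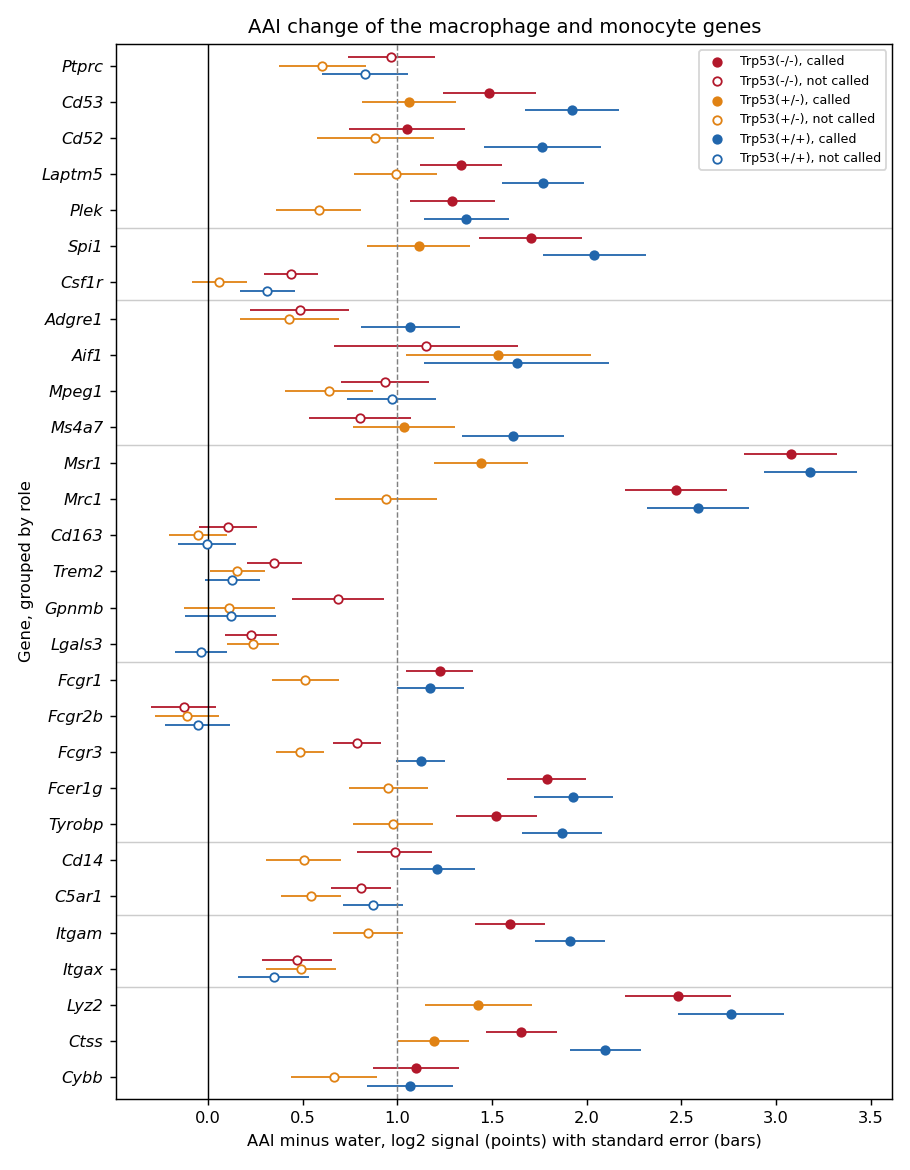
AAI minus water on the log2 scale (x axis, points) with its standard error (bars) for each of the 29 measured members (y axis, grouped by role), with Trp53(-/-) above Trp53(+/-) and Trp53(+/+) in each row. Filled points are called (adjusted p under 0.05 and at least 2-fold, dashed line at 1), and Msr1, Lyz2 and Mrc1 lie farthest to the right while Cd163, Fcgr2b and Lgals3 lie near 0.

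Genotypes shared a core of called members. *Spi1*, *Cd53*, *Msr1*, *Lyz2* and *Ctss* were called higher in all 3 genotypes, which was true of 0.61% of all transcript clusters. A further 9 members, *Cd52*, *Laptm5*, *Plek*, *Mrc1*, *Fcgr1*, *Fcer1g*, *Tyrobp*, *Itgam* and *Cybb*, were called in *Trp53(-/-)* and *Trp53(+/+)* kidneys and not in *Trp53(+/-)* kidneys. *Adgre1*, *Fcgr3* and *Cd14* were called in *Trp53(+/+)* kidneys alone, and *Aif1* and *Ms4a7* in *Trp53(+/-)* and *Trp53(+/+)* kidneys. The other 10 measured members, *Ptprc*, *Csf1r*, *Mpeg1*, *Cd163*, *Trem2*, *Gpnmb*, *Lgals3*, *Fcgr2b*, *C5ar1* and *Itgax*, were called in none. A call in some genotypes and not in others is no difference between them, which is tested further on. For 8 members, *Cd53*, *Laptm5*, *Msr1*, *Fcgr3*, *Fcer1g*, *Tyrobp*, *Lyz2* and *Ctss*, AAI and water arrays did not overlap in any genotype (2.46% of all transcript clusters).

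PU.1 binds DNA with a purine-rich core, so the promoters of the members that rose are shown with that core marked. RefSeq windows of GRCm38.p6 were at hand for 24 of the 31 members. The 100 bases directly before the start of the gene follow, 5′ to 3′ on the strand of the gene, for the members called in both *Trp53(-/-)* and *Trp53(+/+)* kidneys that hold the core there. Capitals mark the core, GAGGAA, or its reverse complement, TTCCTC.
Cd53: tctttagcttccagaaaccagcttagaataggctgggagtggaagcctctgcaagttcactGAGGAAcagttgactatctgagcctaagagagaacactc
Laptm5: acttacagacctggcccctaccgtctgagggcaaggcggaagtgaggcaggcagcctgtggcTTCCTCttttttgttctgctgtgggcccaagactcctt
Plek: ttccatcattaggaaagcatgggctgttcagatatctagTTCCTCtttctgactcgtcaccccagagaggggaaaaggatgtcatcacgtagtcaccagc
Mrc1: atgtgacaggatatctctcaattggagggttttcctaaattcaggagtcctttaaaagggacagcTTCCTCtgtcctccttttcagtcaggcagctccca
Fcgr1: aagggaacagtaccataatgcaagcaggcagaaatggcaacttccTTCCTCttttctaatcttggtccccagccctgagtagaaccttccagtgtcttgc
Itgam: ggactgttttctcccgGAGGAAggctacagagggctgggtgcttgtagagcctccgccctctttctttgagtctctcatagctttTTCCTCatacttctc
These stretches lie at chr3:106790150-106790249 (minus strand), chr4:130913216-130913315 (plus strand), chr11:17008719-17008818 (minus strand), chr2:14229314-14229413 (plus strand), chr3:96293970-96294069 (minus strand) and chr7:128062540-128062639 (plus strand). *Itgam*, which encodes the integrin chain CD11b, holds the core at 2 places, 84 and 15 bases before the start. In the 250 bases before the start, on either strand, GAGGAA was present in 13 of the 24 members with a window, against 25.9% of 27025 genes. By calls, it was present in 9 of 13 members called higher in any genotype, 2 of 9 measured members called in none and 2 of 2 members not measured. No test was made of these counts. Of members with large changes, *Lyz2* and *Fcer1g* hold no such letters in their windows, and *Msr1*, *Spi1* and *Tyrobp* had no window at hand. The longer form GAGGAAGT, which contains the same core, was present in 0 of 24 members, against 2.79% of all genes, and a still longer form with 1 more letter at each end was present in 0, against 0.385%. A match of this length is a description of the sequence and not a binding site.

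*Spi1*, which encodes PU.1, rose in all 3 genotypes. In *Trp53(-/-)* kidneys its signal was 8.74, 8.85, 8.70, 8.12 and 7.89 with AAI, against 6.61, 6.79, 7.28, 6.87 and 6.23 with water. *Trp53(+/-)* AAI kidneys read 7.15, 7.84, 6.77, 8.70 and 7.86, against 6.54, 6.33, 6.40, 6.54 and 6.93 in their water controls. For *Trp53(+/+)* mice the signal was 8.80, 7.52, 7.99, 7.22 and 8.13 with AAI, against 6.24, 5.79, 5.66, 6.07 and 5.69 with water. AAI and water arrays were apart in *Trp53(-/-)* and *Trp53(+/+)* kidneys, whereas in *Trp53(+/-)* kidneys the AAI array of replicate 3 lay among the water arrays. The changes were 1.70 ± 0.27, 1.11 ± 0.27 and 2.04 ± 0.27 (log2 ± SE, adjusted p = 9.1e-06, 0.00734 and 4.38e-07 from limma) in *Trp53(-/-)*, *Trp53(+/-)* and *Trp53(+/+)* kidneys.

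*Csf1r*, which encodes the receptor that macrophages need for survival, moved far less than *Spi1*. Its signal was 8.21, 8.15, 8.21, 7.99 and 7.41 in *Trp53(-/-)* AAI kidneys, against 7.73, 7.42, 7.77, 7.49 and 7.37 in water kidneys. Arrays of *Trp53(+/-)* mice ran from 7.58 to 8.03 with AAI, against 7.50 to 7.83 with water, and those of *Trp53(+/+)* mice from 7.29 to 7.97 with AAI, against 7.15 to 7.64 with water. Of the *Trp53(-/-)* AAI arrays, 4 were above all water arrays, and replicate 5 lay among them. The change of 0.44 ± 0.14 in *Trp53(-/-)* kidneys had an adjusted p of 0.0223 and was below 2-fold, and the changes in *Trp53(+/-)* and *Trp53(+/+)* kidneys were 0.06 ± 0.14 and 0.31 ± 0.14 (adjusted p = 0.989 and 0.112).

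Members carried by leukocytes of many kinds rose with AAI in the same kidneys. Of 5 such members, 4 were called in *Trp53(-/-)*, 1 in *Trp53(+/-)* and 4 in *Trp53(+/+)* mice. *Cd53*, a tetraspanin of the leukocyte membrane, measured 7.95, 8.01, 7.53, 6.78 and 6.94 in *Trp53(-/-)* AAI kidneys, against 5.88, 5.95, 6.33, 5.52 and 6.11 in water kidneys. It measured 6.73, 6.92, 6.25, 7.31 and 7.11 in *Trp53(+/-)* AAI kidneys, against 5.84, 5.65, 6.10, 5.87 and 5.54 in water kidneys. Values of 7.90, 7.12, 7.13, 6.36 and 6.54 were found in *Trp53(+/+)* AAI kidneys, against 5.37, 5.35, 5.29, 4.83 and 4.60 in water kidneys. No AAI array overlapped a water array of its genotype, and the folds were 2.8, 2.09 and 3.79 in *Trp53(-/-)*, *Trp53(+/-)* and *Trp53(+/+)* kidneys (adjusted p = 1.69e-05, 0.00478 and 2.22e-07).

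*Laptm5*, a lysosomal membrane protein of blood cells, was 2.52-fold higher in *Trp53(-/-)* and 3.41-fold higher in *Trp53(+/+)* kidneys. The *Trp53(+/-)* change of 0.99 ± 0.22 fell just short of 2-fold at an adjusted p of 0.0029, with AAI arrays at 7.94 to 9.08, against 7.51 to 7.68 for water. *Plek*, a protein kinase C substrate of platelets and leukocytes, changed by 1.29 ± 0.22, 0.58 ± 0.22 and 1.36 ± 0.22 in *Trp53(-/-)*, *Trp53(+/-)* and *Trp53(+/+)* kidneys, and *Cd52*, a small glycoprotein of the leukocyte surface, by 1.05 ± 0.31, 0.88 ± 0.31 and 1.77 ± 0.31. For *Cd52* the AAI and water arrays of *Trp53(-/-)* kidneys overlapped, as the water array of replicate 3 read 7.08. *Ptprc*, which encodes the leukocyte phosphatase CD45, was called in no genotype. Its signal ran from 7.95 to 8.56 in *Trp53(-/-)* AAI kidneys, against 7.06 to 7.66 in water kidneys, a change of 0.97 ± 0.23 that was below 2-fold at an adjusted p of 0.0014. The changes in *Trp53(+/-)* and *Trp53(+/+)* kidneys were 0.60 ± 0.23 and 0.83 ± 0.23 (adjusted p = 0.125 and 0.00589).

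**Figure D2:**
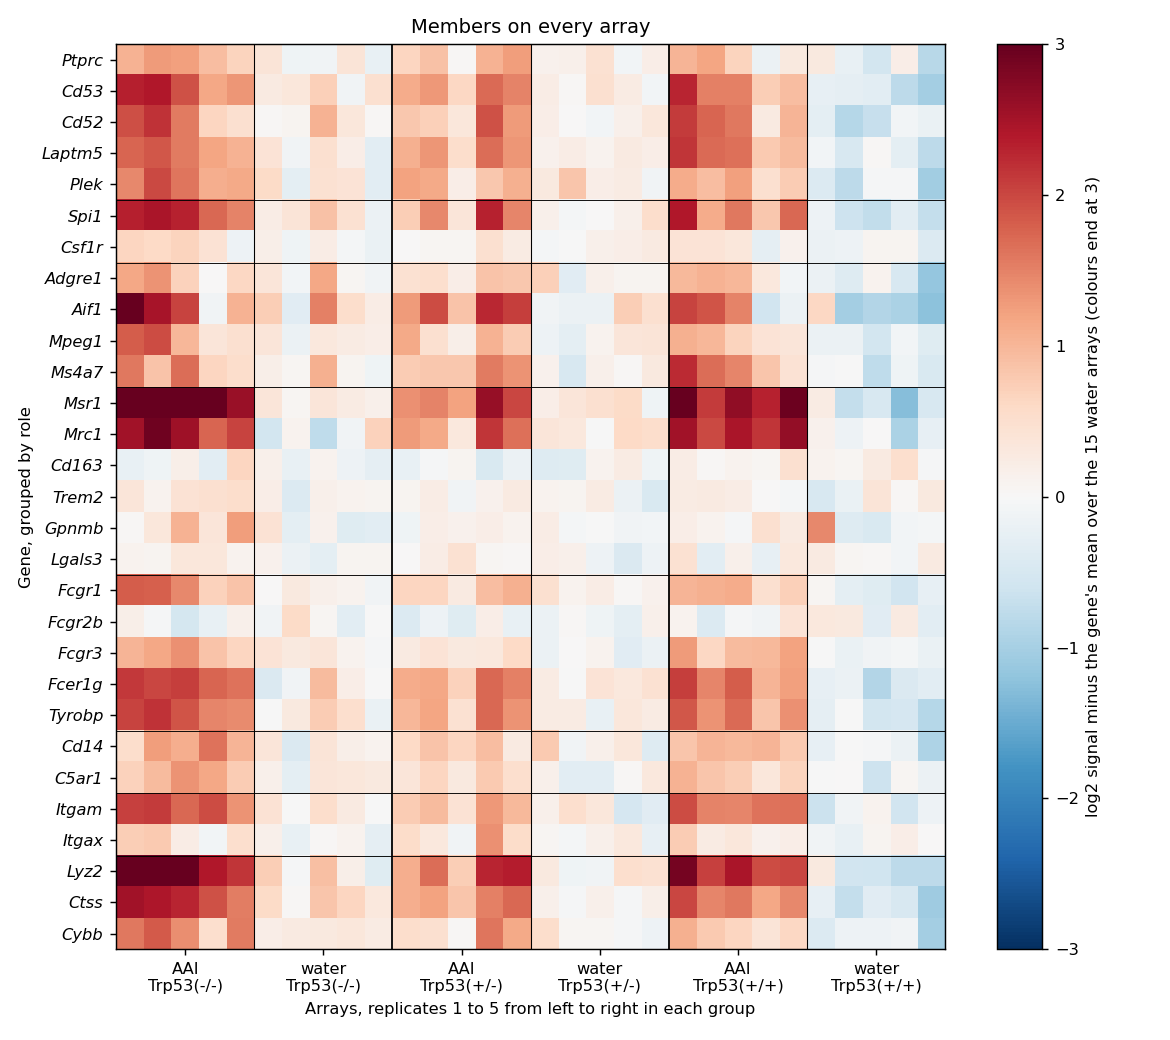
Log2 signal of the 29 measured members (rows, grouped by role) on each of the 30 arrays (columns, 5 per group), as the difference from the gene's mean over the 15 water arrays (red above, blue below, colours ending at 3 in either direction). AAI arrays are redder than the water arrays of their genotype for most rows, the Trp53(+/-) AAI arrays are paler, and the rows of Cd163, Fcgr2b and Lgals3 are near white throughout.

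Genes used to mark macrophages in tissue gave fewer calls than the leukocyte genes in *Trp53(-/-)* kidneys. Of 4 measured, 0 were called in *Trp53(-/-)*, 2 in *Trp53(+/-)* and 3 in *Trp53(+/+)* mice, and *Ms4a7* and *Mpeg1* passed in *Trp53(-/-)* kidneys with no minimum fold. *Adgre1*, which encodes the adhesion receptor most used to mark mouse macrophages, measured 6.59, 6.78, 6.12, 5.43 and 6.06 in *Trp53(-/-)* AAI kidneys, against 5.79, 5.35, 6.60, 5.50 and 5.32 in water kidneys. The *Trp53(+/-)* AAI kidneys measured 5.88, 5.94, 5.62, 6.30 and 6.25, against 6.14, 5.10, 5.58, 5.51 and 5.51 in water kidneys, and the *Trp53(+/+)* AAI kidneys 6.40, 6.47, 6.42, 5.75 and 5.35, against 5.26, 5.05, 5.54, 4.95 and 4.26 in water kidneys. AAI and water arrays overlapped in each genotype. The change was 0.48 ± 0.26 in *Trp53(-/-)*, 0.43 ± 0.26 in *Trp53(+/-)* and 1.07 ± 0.26 in *Trp53(+/+)* mice (adjusted p = 0.188, 0.521 and 0.00199). Among *Trp53(-/-)* water kidneys, replicate 3 read 6.60 and stood above the other 4 arrays of its group, and it was the highest of its group for 16 of the 29 members.

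*Aif1*, which encodes the actin-binding protein IBA1, had the widest spread of all members among *Trp53(-/-)* and *Trp53(+/+)* AAI kidneys. It measured 7.33, 6.82, 6.38, 4.24 and 5.38 in *Trp53(-/-)* AAI kidneys, against 5.08, 4.01, 5.85, 4.87 and 4.57 in water kidneys. In *Trp53(+/-)* kidneys it measured 5.62, 6.29, 5.21, 6.61 and 6.41 with AAI, against 4.24, 4.16, 4.16, 5.08 and 4.83 with water. *Trp53(+/+)* AAI kidneys measured 6.37, 6.23, 5.83, 3.77 and 4.17, against 4.97, 3.32, 3.45, 3.40 and 3.10 in water kidneys. In *Trp53(-/-)* and *Trp53(+/+)* AAI kidneys some arrays stood at the level of water arrays, and the SD was 1.23 and 1.22, whereas the 5 *Trp53(+/-)* AAI arrays were all above their controls. The changes were 1.15 ± 0.49, 1.53 ± 0.49 and 1.63 ± 0.49 in *Trp53(-/-)*, *Trp53(+/-)* and *Trp53(+/+)* kidneys (adjusted p = 0.0817, 0.0494 and 0.011). *Trp53(+/+)* water kidneys averaged 3.65, and with signals under 4 set to 4 the *Trp53(+/+)* change was 1.13 ± 0.46 (adjusted p = 0.0599) and no longer called. *Ms4a7*, a membrane protein of macrophages, changed by 0.80 ± 0.27, 1.03 ± 0.27 and 1.61 ± 0.27, the first of these below 2-fold at an adjusted p of 0.0252. *Mpeg1*, which encodes the pore-forming protein perforin-2, changed by 0.93 ± 0.23, 0.64 ± 0.23 and 0.97 ± 0.23 and stayed below 2-fold in each genotype.

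The largest change of all members in *Trp53(-/-)* and in *Trp53(+/+)* kidneys was that of *Msr1*, a scavenger receptor. Of the scavenger and lipid receptors, *Msr1* and *Mrc1* rose, and the other 4, *Cd163*, *Trem2*, *Gpnmb* and *Lgals3*, were called in no genotype. *Msr1* encodes the class A scavenger receptor, which binds modified lipoproteins and dying cells. It measured 7.52, 7.87, 7.62, 7.44 and 6.72 in *Trp53(-/-)* AAI kidneys, against 4.49, 4.18, 4.49, 4.36 and 4.28 in water kidneys. It measured 5.50, 5.60, 5.33, 6.74 and 6.12 in *Trp53(+/-)* AAI kidneys, against 4.32, 4.48, 4.61, 4.68 and 4.00 in water kidneys. *Msr1* in *Trp53(+/+)* AAI kidneys read 7.32, 6.23, 6.79, 6.43 and 7.06, against 4.37, 3.41, 3.65, 2.85 and 3.64 in water kidneys. AAI and water arrays were apart in each genotype. The folds were 8.43, 2.72 and 9.07 in *Trp53(-/-)*, *Trp53(+/-)* and *Trp53(+/+)* kidneys, or 3.08 ± 0.25, 1.44 ± 0.25 and 3.18 ± 0.25 on the log2 scale (adjusted p = 2.72e-11, 0.000227 and 1.4e-11). *Trp53(+/+)* water kidneys averaged 3.59, under the level of 4 taken here as dim, and no detection values were used. With signals under 4 set to 4, a setting chosen after seeing the data, the *Trp53(+/+)* fold was 6.46 (adjusted p = 2.76e-11).

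*Mrc1* encodes the mannose receptor CD206, an endocytic receptor for glycoproteins. Its signal was 7.72, 8.12, 7.73, 6.94 and 7.24 in *Trp53(-/-)* AAI kidneys, against 4.64, 5.30, 4.44, 5.10 and 5.90 in water kidneys. In *Trp53(+/-)* kidneys it was 6.47, 6.33, 5.51, 7.34 and 6.86 with AAI, against 5.56, 5.52, 5.19, 5.81 and 5.74 with water, and these overlapped through the AAI array of replicate 3. *Trp53(+/+)* AAI kidneys read 7.71, 7.17, 7.66, 7.35 and 7.83, against 5.34, 5.04, 5.20, 4.25 and 4.95 in water kidneys, with no overlap. The folds were 5.54, 1.92 and 6.01 (adjusted p = 9.03e-09, 0.0242 and 3.45e-09).

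**Figure D3:**
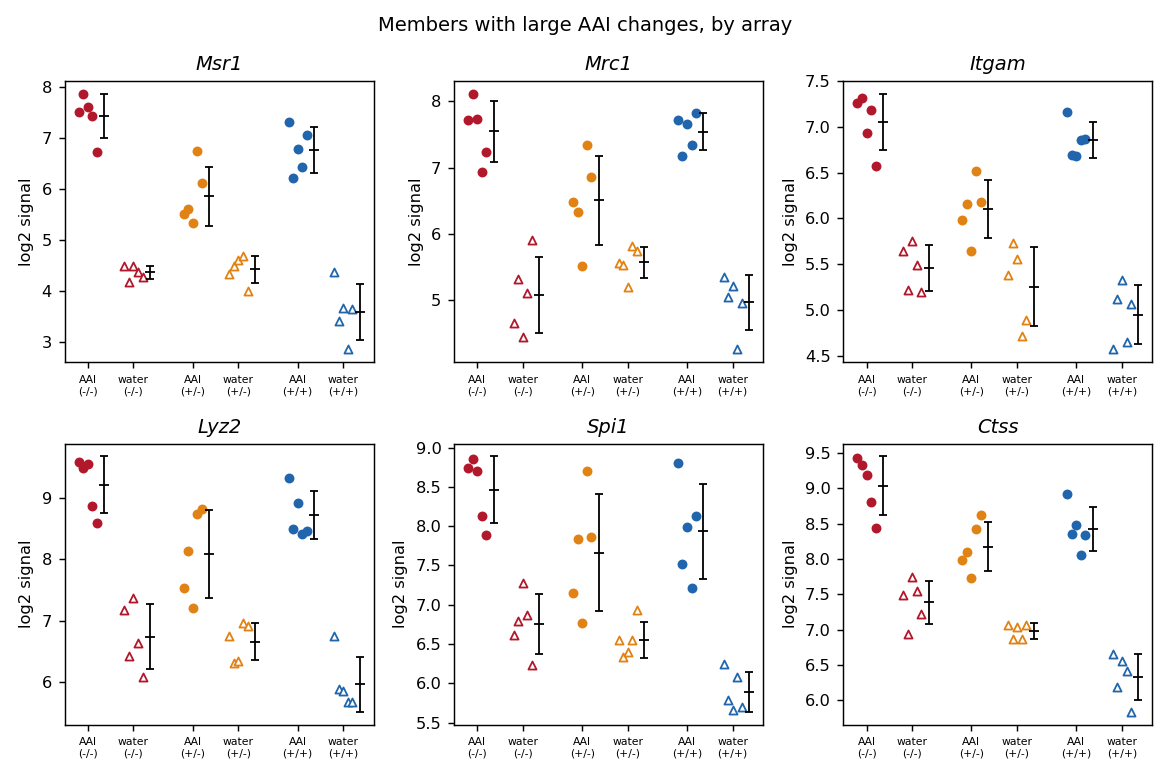
Log2 signal (y axes) of Msr1, Mrc1, Itgam, Lyz2, Spi1 and Ctss on each array, with AAI (filled circles) left of water (open triangles) in Trp53(-/-), Trp53(+/-) and Trp53(+/+) kidneys, and the mean with its SD (black, n = 5 mice). The AAI means of Trp53(+/-) mice lie between the other AAI means and their own water means for each gene shown.

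*Cd163*, the receptor for haemoglobin bound to haptoglobin, showed no change that could be told from the spread. It averaged 4.71 ± 0.39 in *Trp53(-/-)* AAI kidneys and 4.61 ± 0.19 in water kidneys (SD, n = 5 each). *Trp53(+/-)* kidneys averaged 4.52 ± 0.20 with AAI and 4.58 ± 0.27 with water, and *Trp53(+/+)* kidneys 4.86 ± 0.19 with AAI and 4.86 ± 0.21 with water. The changes were 0.11 ± 0.15, -0.05 ± 0.15 and -0.0047 ± 0.15 in the same order of genotypes (adjusted p = 0.688, 0.996 and 0.988). *Lgals3*, which encodes the carbohydrate-binding protein galectin-3, changed by 0.23 ± 0.14, 0.23 ± 0.14 and -0.04 ± 0.14 in *Trp53(-/-)*, *Trp53(+/-)* and *Trp53(+/+)* kidneys.

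*Trem2*, a lipid receptor that signals through the product of *Tyrobp*, was called in no genotype. Its signal ran from 5.81 to 6.22 in *Trp53(-/-)* AAI kidneys, against 5.30 to 5.91 in water kidneys, a change of 0.35 ± 0.15 (adjusted p = 0.0765). Its changes in *Trp53(+/-)* and *Trp53(+/+)* kidneys were 0.15 ± 0.15 and 0.13 ± 0.15 (adjusted p = 0.846 and 0.567). *Gpnmb*, a glycoprotein of lysosomes and melanosomes, measured 5.49, 5.78, 6.48, 5.81 and 6.71 in *Trp53(-/-)* AAI kidneys, against 5.89, 5.16, 5.57, 5.08 and 5.14 in water kidneys. The groups overlapped, and the change of 0.69 ± 0.24 was below 2-fold at an adjusted p of 0.0324. *Gpnmb* in *Trp53(+/+)* kidneys ran from 5.42 to 5.94 with AAI, against 4.99 to 6.88 with water, where the water array of replicate 1 was higher than every AAI array.

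**Figure D4:**
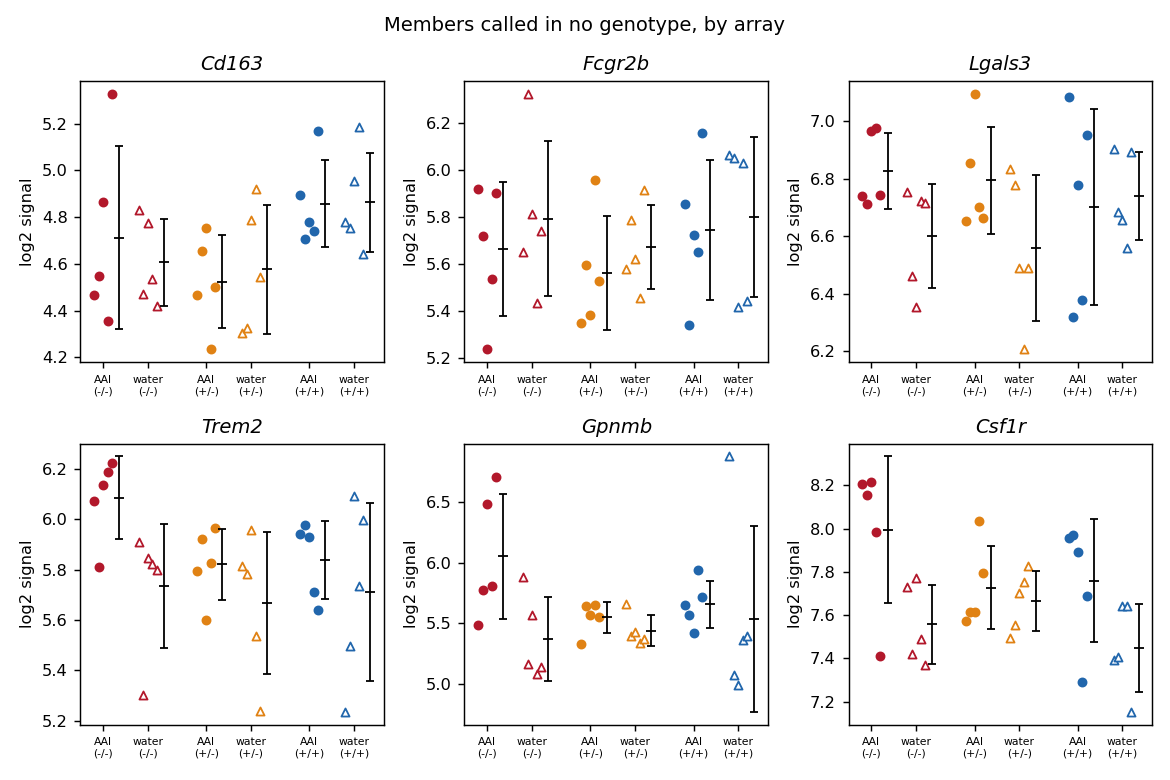
Log2 signal (y axes) of Cd163, Fcgr2b, Lgals3, Trem2, Gpnmb and Csf1r on each array, with AAI (filled circles) left of water (open triangles) in Trp53(-/-), Trp53(+/-) and Trp53(+/+) kidneys, and the mean with its SD (black, n = 5 mice). AAI and water arrays overlap in each genotype for these 6 genes.

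Of the 5 Fc receptors and ITAM adaptors, 3, 0 and 4 were called higher in *Trp53(-/-)*, *Trp53(+/-)* and *Trp53(+/+)* kidneys. With no minimum fold, 4, 3 and 4 were higher at an adjusted p under 0.05. The inhibitory receptor was called in no genotype. Fc receptors bind the constant part of antibodies, and *Fcer1g* encodes an ITAM adaptor that passes their signal on. *Tyrobp* encodes DAP12, the ITAM adaptor through which the *Trem2* product signals. *Fcer1g* measured 7.67, 7.55, 7.61, 7.28 and 7.16 in *Trp53(-/-)* AAI kidneys, against 5.11, 5.45, 6.48, 5.75 and 5.54 in water kidneys. Kidneys of *Trp53(+/-)* mice measured 6.64, 6.69, 6.22, 7.26 and 7.06 with AAI, against 5.79, 5.52, 5.96, 5.86 and 6.00 with water. Those of *Trp53(+/+)* mice measured 7.61, 7.01, 7.35, 6.56 and 6.76 with AAI, against 5.30, 5.36, 4.67, 5.10 and 5.23 with water. The AAI arrays of each genotype lay above all of its water arrays. The folds were 3.46, 1.93 and 3.81 (adjusted p = 3.57e-08, 0.00273 and 8.26e-09), so that the *Trp53(+/-)* change was below 2-fold.

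For *Tyrobp*, too, AAI and water arrays did not overlap in any genotype. It ran from 8.21 to 8.95 in *Trp53(-/-)* AAI kidneys, against 6.59 to 7.55 in water kidneys, and from 7.24 to 8.52 in *Trp53(+/-)* AAI kidneys, against 6.56 to 7.13 in water kidneys. The *Trp53(+/+)* range was 7.63 to 8.66 with AAI, against 5.92 to 6.77 with water. Its folds were 2.87, 1.97 and 3.66 (adjusted p = 9.26e-07, 0.00258 and 2.09e-08). *Fcgr1*, the high-affinity receptor for IgG, changed by 1.22 ± 0.18, 0.51 ± 0.18 and 1.17 ± 0.18 in *Trp53(-/-)*, *Trp53(+/-)* and *Trp53(+/+)* kidneys (adjusted p = 2.17e-06, 0.0807 and 4.25e-06).

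*Fcgr3*, an activating receptor of low affinity, had tight groups. It measured 7.08, 7.21, 7.44, 6.91 and 6.71 in *Trp53(-/-)* AAI kidneys, against 6.47, 6.35, 6.42, 6.17 and 6.02 in water kidneys. *Fcgr3* in *Trp53(+/-)* AAI kidneys read 6.32, 6.46, 6.34, 6.36 and 6.66, against 5.88, 6.07, 6.16, 5.72 and 5.89 in water kidneys. *Fcgr3* in *Trp53(+/+)* AAI kidneys read 7.34, 6.67, 7.02, 7.02 and 7.27, against 6.03, 5.87, 5.95, 6.00 and 5.86 in water kidneys. There was no overlap in any genotype, although only the *Trp53(+/+)* change of 1.12 ± 0.13 passed 2-fold, beside 0.78 ± 0.13 and 0.48 ± 0.13 in *Trp53(-/-)* and *Trp53(+/-)* kidneys (adjusted p = 1.2e-05 and 0.0136). *Fcgr2b*, the inhibitory receptor for IgG, averaged 5.66 ± 0.29, 5.56 ± 0.24 and 5.74 ± 0.30 with AAI in *Trp53(-/-)*, *Trp53(+/-)* and *Trp53(+/+)* kidneys, against 5.79 ± 0.33, 5.67 ± 0.18 and 5.80 ± 0.34 with water (SD, n = 5 each). Its changes of -0.13, -0.11 and -0.06 were within the spread between kidneys, and the difference between *Fcgr2b* and *Fcgr3* was not tested.

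Of the pattern and complement receptors, *Cd14* was called in *Trp53(+/+)* kidneys only. *Cd14* is the co-receptor for bacterial lipopolysaccharide. It measured 5.92, 6.63, 6.48, 7.02 and 6.41 in *Trp53(-/-)* AAI kidneys, against 5.76, 4.96, 5.78, 5.57 and 5.48 in water kidneys, with no overlap and a change of 0.98 ± 0.20 that fell just short of 2-fold (adjusted p = 0.000228). *Trp53(+/+)* AAI kidneys measured 6.20, 6.41, 6.36, 6.41 and 6.17, against 5.13, 5.36, 5.35, 5.21 and 4.45 in water kidneys, a change of 1.21 ± 0.20 (adjusted p = 1.33e-05). The *Trp53(+/-)* groups overlapped, with a change of 0.50 ± 0.20 (adjusted p = 0.145). *C5ar1*, the receptor for the complement fragment C5a, changed by 0.81 ± 0.16, 0.54 ± 0.16 and 0.87 ± 0.16 in *Trp53(-/-)*, *Trp53(+/-)* and *Trp53(+/+)* kidneys, each below 2-fold with adjusted p = 0.000175, 0.0287 and 6.23e-05.

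Of the integrin chains, *Itgam* rose and *Itgax* was called in no genotype. *Itgam* encodes CD11b, which with a common beta chain forms complement receptor 3 of monocytes, macrophages and neutrophils. It measured 7.26, 7.32, 6.94, 7.18 and 6.57 in *Trp53(-/-)* AAI kidneys, against 5.64, 5.21, 5.75, 5.49 and 5.20 in water kidneys. *Itgam* in *Trp53(+/-)* AAI kidneys read 5.99, 6.16, 5.65, 6.52 and 6.18, against 5.38, 5.73, 5.56, 4.72 and 4.89 in water kidneys. With both Trp53 copies present, in *Trp53(+/+)* mice, it read 7.17, 6.70, 6.68, 6.85 and 6.87 with AAI, against 4.57, 5.11, 5.33, 4.65 and 5.07 with water. The groups were apart in *Trp53(-/-)* and *Trp53(+/+)* kidneys and overlapped in *Trp53(+/-)* kidneys, where replicate 3 was the lowest AAI array. The folds were 3.02, 1.8 and 3.76 (adjusted p = 3.25e-08, 0.00273 and 9.21e-10). *Itgax*, which encodes CD11c of dendritic cells and some macrophages, changed by 0.47 ± 0.19, 0.49 ± 0.19 and 0.35 ± 0.19, with adjusted p = 0.0606, 0.126 and 0.18.

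The 3 members for digestion and oxidative killing, *Lyz2*, *Ctss* and *Cybb*, were called higher in *Trp53(-/-)* and *Trp53(+/+)* kidneys. *Lyz2* encodes lysozyme M, which cleaves bacterial cell walls. It measured 9.60, 9.49, 9.55, 8.87 and 8.59 in *Trp53(-/-)* AAI kidneys, against 7.18, 6.42, 7.37, 6.64 and 6.09 in water kidneys. *Trp53(+/-)* AAI kidneys measured 7.54, 8.13, 7.20, 8.74 and 8.82, against 6.75, 6.32, 6.35, 6.96 and 6.91 in water kidneys. In *Trp53(+/+)* kidneys it measured 9.34, 8.50, 8.92, 8.41 and 8.47 with AAI, against 6.75, 5.89, 5.85, 5.67 and 5.67 with water. There was no overlap in any genotype, and the folds were 5.58, 2.69 and 6.78 (adjusted p = 2.11e-08, 0.000976 and 2.49e-09).

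*Ctss* encodes cathepsin S, a lysosomal protease that trims the invariant chain of class II molecules. It measured 9.43, 9.34, 9.19, 8.81 and 8.44 in *Trp53(-/-)* AAI kidneys, against 7.49, 6.94, 7.74, 7.54 and 7.22 in water kidneys. *Ctss* in *Trp53(+/-)* AAI kidneys read 7.99, 8.11, 7.73, 8.42 and 8.62, against 7.06, 6.87, 7.05, 6.86 and 7.07 in water kidneys. *Ctss* in *Trp53(+/+)* AAI kidneys read 8.92, 8.35, 8.49, 8.06 and 8.34, against 6.66, 6.19, 6.56, 6.42 and 5.84 in water kidneys. AAI arrays were above water arrays in each genotype, and the lowest *Trp53(-/-)* water array was above the highest *Trp53(+/+)* water array. The folds were 3.15, 2.28 and 4.28 (adjusted p = 2.11e-08, 8.79e-05 and 1.87e-10). *Cybb* encodes gp91phox, the catalytic subunit of the phagocyte NADPH oxidase, and rose 2.14-fold in *Trp53(-/-)* and 2.09-fold in *Trp53(+/+)* kidneys, while its change in *Trp53(+/-)* kidneys was 0.67 ± 0.23 (adjusted p = 0.0721). The other oxidase subunits gave 0 calls of 4 measured in any genotype, by limma and by the unmoderated test with 2-fold. At an unadjusted p under 0.05 in limma, 1, 1 and 3 of them were higher, and 1 was lower in each genotype. With no minimum fold, 1, 0 and 2 were higher at an adjusted p under 0.05, beside 15.5%, 3.53% and 15.2% of all transcript clusters, and 1 was lower in each genotype. By sign, 3 of the 4 changes were above 0 in each genotype. The lower gene was *Cyba*, the partner chain of *Cybb*, with changes of -0.85 ± 0.12, -0.41 ± 0.12 and -0.81 ± 0.12 (adjusted p = 7.58e-07, 0.0224 and 1.73e-06), which stayed below 2-fold.

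Whether loss of Trp53 altered the AAI change was tested as the difference of the changes between genotypes (the interaction, called at an adjusted p under 0.05). Between *Trp53(-/-)* and *Trp53(+/+)* kidneys, 0 of 29 members passed, beside 0.104% of all transcript clusters. At an unadjusted p under 0.05 in limma there was 1 member (7.61% of all transcript clusters), *Ms4a7*, with a difference of -0.81 ± 0.38 (unadjusted p = 0.0426). For *Msr1* the difference was -0.11 ± 0.35, for *Mrc1* -0.12 ± 0.38 and for *Lyz2* -0.28 ± 0.40, each smaller than its standard error, and with signals under 4 set to 4 the difference of *Msr1* was 0.38 ± 0.31 (adjusted p = 0.796). The change was larger in *Trp53(+/+)* than in *Trp53(-/-)* kidneys for 20 of the 29 members, with a median difference of -0.12 for *Trp53(-/-)* minus *Trp53(+/+)*. *Spi1* had a difference of -0.34 ± 0.38 and *Ctss* of -0.44 ± 0.26.

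Taken with its sign, the AAI change was lowest in *Trp53(+/-)* kidneys for 23 of the 29 members. No share over all transcript clusters is given for this count. The 10 proximal tubule genes, which fell, also changed less there. Their median changes were -3.10, -1.29 and -2.86 in *Trp53(-/-)*, *Trp53(+/-)* and *Trp53(+/+)* kidneys. In the test of *Trp53(+/-)* minus *Trp53(+/+)*, *Msr1* (-1.74 ± 0.35, adjusted p = 0.00574), *Mrc1* (-1.65 ± 0.38, adjusted p = 0.0156) and *Itgam* (-1.06 ± 0.26, adjusted p = 0.0248) passed, beside 1.84% of all transcript clusters. With signals under 4 set to 4, *Msr1* had a difference of -1.25 ± 0.31 (adjusted p = 0.0209). At an unadjusted p under 0.05 there were 14 members, beside 10.3% of all transcript clusters. In the test of *Trp53(-/-)* minus *Trp53(+/-)*, *Msr1* (1.63 ± 0.35, adjusted p = 0.00694) and *Mrc1* (1.53 ± 0.38, adjusted p = 0.0208) passed, beside 2.58% of all transcript clusters, and 7 members had an unadjusted p under 0.05, beside 12.2%. These tests share the *Trp53(+/-)* kidneys, whose AAI and water arrays lie in different cDNA batches, so that genotype and batch cannot be told apart in them. With a batch term, under the 5 ways to place the single *Trp53(+/+)* AAI array of the other batch, the count of members called in *Trp53(+/-)* kidneys was 0 to 10 (median 0), and 0 to 2 and 0 to 1 members passed the interaction with *Trp53(+/+)* and with *Trp53(-/-)*. Over all transcript clusters the shares were 0% to 1.99%, 0% to 1.27% and 0.0316% to 1.89% in the same order. Only *Trp53(+/+)* AAI kidneys lie in both batches, so the term rests on 1 of their arrays against the other 4. As that array is not identified, the counts give no batch-corrected result. Set against *Trp53(+/+)* water kidneys, which share their batch, *Trp53(+/-)* AAI kidneys had 15 members called higher, beside 2.25% of all transcript clusters, in a comparison that changes genotype together with treatment.

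Within AAI kidneys, members passed the test between genotypes in the comparisons with *Trp53(+/-)* mice. Between *Trp53(-/-)* and *Trp53(+/+)* AAI kidneys 0 of 29 members passed an adjusted p under 0.05, beside 3.1% of all transcript clusters, and 0 passed the unmoderated test with 2-fold. At an unadjusted p under 0.05 in limma there were 5 members, beside 15.8%, and 26 of 29 differences were above 0 with a median of 0.25. All of these *Trp53(-/-)* arrays and 4 of the 5 *Trp53(+/+)* arrays lie in different batches, so genotype and batch cannot be told apart here. In *Trp53(+/-)* against *Trp53(+/+)* AAI kidneys, where 4 of 5 *Trp53(+/+)* arrays share the batch of the *Trp53(+/-)* arrays, 3 members were lower, beside 1.54% of all transcript clusters, and 6 members had an unadjusted p under 0.05, beside 10.8%. The 3 were *Mrc1* (-1.04 ± 0.27, adjusted p = 0.0383), *Itgam* (-0.76 ± 0.18, adjusted p = 0.0267) and *Fcgr3* (-0.64 ± 0.13, adjusted p = 0.00604). For *Fcgr3* and *Itgam* the highest *Trp53(+/-)* AAI array was below the lowest *Trp53(+/+)* AAI array, which was true of 1.3% of all transcript clusters. *Msr1* had a difference of -0.91 ± 0.25 (adjusted p = 0.0542). With a batch term 1 to 4 members passed, according to the placing of the array, beside 0.61% to 2.3% of all transcript clusters.

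In *Trp53(-/-)* against *Trp53(+/-)* AAI kidneys, which lie in different batches, 9 members were higher, beside 10.4% of all transcript clusters in either direction and 5.53% higher, and 16 members had an unadjusted p under 0.05, beside 21.1%. The 9 were *Msr1* (1.58 ± 0.25), *Lyz2* (1.13 ± 0.28), *Mrc1* (1.04 ± 0.27), *Itgam* (0.96 ± 0.18), *Ctss* (0.87 ± 0.19), *Fcer1g* (0.68 ± 0.21), *Tyrobp* (0.65 ± 0.21), *Fcgr3* (0.64 ± 0.13) and *Fcgr1* (0.61 ± 0.18), with adjusted p between 3.86e-05 and 0.0454. With a batch term 0 to 2 members passed, beside 0.104% to 3.66% of all transcript clusters.

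In water kidneys the members already lay somewhat higher where a Trp53 copy was missing, in groups that also differ in batch. In *Trp53(-/-)* against *Trp53(+/+)* water kidneys the median difference of the members was 0.46 and 24 of 29 were above 0, while the median over all transcript clusters was -0.01. *Ctss* alone passed an adjusted p under 0.05 (1.05 ± 0.19, adjusted p = 0.00915), beside 0.641% of all transcript clusters, and 17 members had an unadjusted p under 0.05, beside 14.8%. In *Trp53(+/-)* against *Trp53(+/+)* water kidneys the median was 0.46, 24 of 29 were above 0 and 0 passed in limma, beside 0.235%, or by the unmoderated test with 2-fold. There, 13 members had an unadjusted p under 0.05, beside 11.2%, and 6 members had every *Trp53(+/-)* array above every *Trp53(+/+)* array (1.61% of all transcript clusters). These 6 were *Cd53*, *Cd52*, *Laptm5*, *Spi1*, *Fcer1g* and *Ctss*. *Trp53(-/-)* and *Trp53(+/-)* water kidneys, which share a batch, had a median difference of 0.08 with 18 of 29 above 0, and 0 members passed in limma, beside 0% of all transcript clusters, or by the unmoderated test with 2-fold, with 2 members at an unadjusted p under 0.05, beside 4.57%. *Trp53(+/+)* water kidneys are the only water group of their batch, so genotype and batch cannot be told apart in this shift. The AAI change of *Trp53(+/+)* mice is measured from these water kidneys.

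Within a group, the same kidney was often the highest or the lowest for many members. Among *Trp53(-/-)* AAI kidneys, replicate 2 was the highest array for 14 of the 29 members, and replicate 5 the lowest for 13. Among *Trp53(+/-)* AAI kidneys, replicate 4 was the highest for 19 and replicate 3 the lowest for 21. Among *Trp53(+/+)* AAI kidneys, replicate 1 was the highest for 18 and replicate 4 the lowest for 16. The median SD of the members was 0.40 in *Trp53(-/-)*, 0.40 in *Trp53(+/-)* and 0.31 in *Trp53(+/+)* AAI kidneys, against 0.31, 0.24 and 0.33 in their water kidneys, while the median over all transcript clusters was 0.19 to 0.22 in the 6 groups. The count called in *Trp53(+/-)* kidneys depended on single kidneys, being 3 without AAI replicate 4, 4 without AAI replicate 5 and 12 without AAI replicate 3. In *Trp53(-/-)* and *Trp53(+/+)* kidneys it stayed between 12 and 17 and between 17 and 21 when any array was left out. Leaving out the single *Trp53(+/+)* AAI array of the other batch, whichever it is, is among these fits. No shares over all transcript clusters are given for them.

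Of 8 genes for macrophage growth factors and monocyte chemokines, 4 were called higher in *Trp53(-/-)*, 2 in *Trp53(+/-)* and 4 in *Trp53(+/+)* mice. *Csf1*, the main growth factor of the lineage and a ligand of the *Csf1r* product, changed by 3.09 ± 0.31, 2.11 ± 0.31 and 3.19 ± 0.31, and *Ccl2*, the chemokine that draws monocytes out of the blood, by 2.87 ± 0.26, 1.38 ± 0.26 and 2.25 ± 0.26 (adjusted p = 3.5e-10, 0.000732 and 4.18e-08). Of 32 other macrophage genes measured, 9, 4 and 8 were called higher and 1, 0 and 0 lower in *Trp53(-/-)*, *Trp53(+/-)* and *Trp53(+/+)* kidneys, with medians of 0.36, 0.24 and 0.37 on the log2 scale. The 1 lower was *Maf*, a transcription factor, at -1.01 ± 0.20 in *Trp53(-/-)* kidneys (adjusted p = 0.000163), named after its values were seen. The largest change was that of *Ccr2*, the receptor for the *Ccl2* product, at 2.76 ± 0.40, 1.69 ± 0.40 and 3.34 ± 0.40. Of 16 measured genes that act downstream of the ITAM adaptors, 1, 0 and 1 were called, by limma and by the unmoderated test with 2-fold (9, 5 and 8 at an unadjusted p under 0.05 in limma), the gene being *Inpp5d*, a lipid phosphatase of blood cells, at 1.22 ± 0.17 in *Trp53(-/-)* and 1.12 ± 0.17 in *Trp53(+/+)* kidneys. With no minimum fold, 6, 1 and 6 of the 16 were higher at an adjusted p under 0.05, beside 15.5%, 3.53% and 15.2% of all transcript clusters. At that setting 1, 0 and 0 were lower. *Vav1*, a guanine nucleotide exchange factor, changed by 0.90 ± 0.16, 0.51 ± 0.16 and 0.94 ± 0.16.

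Lists of other leukocytes gave few calls. In each genotype 0 of 15 T and NK cell genes, 0 of 8 B cell genes, 0 of 9 dendritic cell genes and 0 of 6 mast cell genes were called, and their medians lay between -0.19 and 0.12 on the log2 scale. The unmoderated test with 2-fold also called 0 of these genes. At an unadjusted p under 0.05 in limma, 2, 0 and 3 T and NK cell genes, 1, 0 and 2 B cell genes, 0, 0 and 1 dendritic cell genes and 2, 0 and 1 mast cell genes differed in either direction in *Trp53(-/-)*, *Trp53(+/-)* and *Trp53(+/+)* kidneys. In limma with an adjusted p under 0.05 and no minimum fold, 5 values of these 4 lists passed, and the genes are named after their values were seen. In *Trp53(+/+)* kidneys these were *Il7r*, the interleukin-7 receptor of lymphocytes, at 0.52 ± 0.17, the B cell kinase gene *Blk* at -0.36 ± 0.13 and *Kit*, the stem cell factor receptor of mast cells, at 0.49 ± 0.19. The values of *Trp53(-/-)* kidneys were *Kit* at 0.50 ± 0.19 and the mast cell protease gene *Mcpt4* at -0.47 ± 0.17. Of 12 neutrophil genes, 1, 0 and 0 were called, by limma and by the unmoderated test with 2-fold (5, 0 and 0 at an unadjusted p under 0.05 in limma), the gene being *S100a8*, a calcium-binding protein that monocytes also make, at 1.50 ± 0.45 in *Trp53(-/-)* kidneys (adjusted p = 0.0116), beside 0.46 ± 0.45 and 0.17 ± 0.45 in *Trp53(+/-)* and *Trp53(+/+)* kidneys. With no minimum fold, 3 neutrophil genes passed higher and 1 lower in *Trp53(-/-)* kidneys. Over all arrays, the mean of the T and NK cell genes was 4.65 to 5.01, 4.79 to 4.88 and 4.52 to 4.72 with AAI in *Trp53(-/-)*, *Trp53(+/-)* and *Trp53(+/+)* kidneys, against 4.74 to 4.87, 4.72 to 4.84 and 4.53 to 4.73 with water. These groups overlapped where those of the members did not. The means of all these lists of other leukocytes lay below the array medians of 5.89 to 5.99. Those of the members in *Trp53(+/+)* water kidneys, at 5.29 to 5.77, did so too. Whether a change of other leukocytes would show at such signals was not tested.

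**Figure D5:**
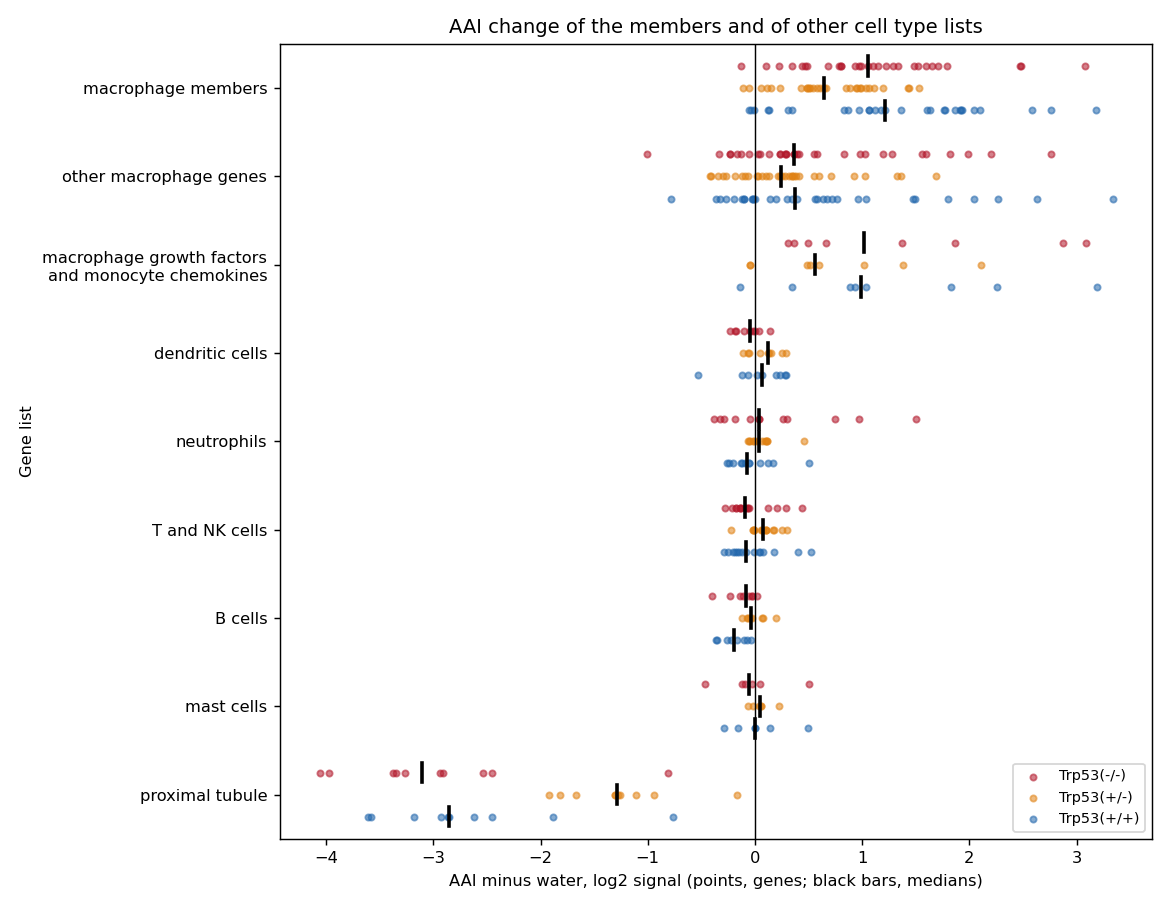
AAI minus water on the log2 scale (x axis) for each gene (points) of the members and of 8 other lists (y axis), with Trp53(-/-) above Trp53(+/-) and Trp53(+/+) in each row and black bars at the medians. The members' medians are 1.05, 0.64 and 1.21, the lists of other leukocytes lie around 0, and proximal tubule genes lie to the left.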

How the data were processed

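The deposited values are log2 signals, 1 for each transcript cluster on each array. The authors obtained them with the Transcriptome Analysis Console (version not given in the sources used here) by the RMA method, so background correction and normalization were already done. No filter was applied, and values ran from 1.92 to 14.04. Clusters were named through the platform annotation, 19572 of 22206 with a symbol, and where clusters shared a symbol the brightest was kept, which dropped 67. A mean was fitted for each group in limma 3.58.1 (R 4.3.3, statmod 1.5.0; 24 residual and 7.21 prior degrees of freedom). All p-values are two-sided and adjusted by Benjamini-Hochberg over all 22139 clusters of a contrast, and their precision rests on 5 mice per group. The fit was tested on simulated data. The study's analysis of variance with batch correction in Qlucore Omics Explorer was not repeated. Genes named are all 31 members and, of each other list given by counts, at most 4 with the largest change. Members and lists were chosen with earlier results of these data known. Alternatives covered the arrays fitted, dim clusters, normalization, prior, array weights, a replicate block, thresholds, an unmoderated 2-group test of each gene (pooled variance, no batch correction), the cDNA batch and each array left out.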

Additional observations from a re-analysis of the deposited data

Results flagged for a closer look

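In 9 of 174 groups of 5 arrays a member had a highest or lowest array that stood apart by Dixon's test (critical value 0.71), which chance gives in about 1 of 20 groups. Low arrays were *Csf1r* in *Trp53(-/-)* AAI replicate 5 (7.41, others 7.985 to 8.215), *Trem2* in *Trp53(-/-)* water replicate 2 (5.303, others 5.798 to 5.91), *Tyrobp* in *Trp53(+/-)* water replicate 3 (6.556, others 7.023 to 7.125) and *Cd14* in *Trp53(+/+)* water replicate 5 (4.446, others 5.133 to 5.362). High arrays were *Ms4a7* in *Trp53(-/-)* water replicate 3 (7.285, others 6.091 to 6.397) and *Gpnmb* in *Trp53(+/-)* water replicate 1 (5.659, others 5.339 to 5.427). In *Trp53(+/+)* water replicate 1, *Aif1* (4.967, others 3.1 to 3.45), *Gpnmb* (6.879, others 4.99 to 5.391) and *Lyz2* (6.75, others 5.667 to 5.887) were high together.

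The AAI change differed between genotypes for 3 members in the test of the difference. *Msr1*, *Mrc1* and *Itgam* changed less in *Trp53(+/-)* than in *Trp53(+/+)* kidneys, by -1.74, -1.648 and -1.064 on the log2 scale, and *Msr1* and *Mrc1* changed more in *Trp53(-/-)* than in *Trp53(+/-)* kidneys, by 1.635 and 1.532. Genotype and cDNA batch cannot be told apart in these differences.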

How the results depend on the processing

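Counts of members called under other settings are given as *Trp53(-/-)*, *Trp53(+/-)* or *Trp53(+/+)* against the group named. Shares over all transcript clusters are given further up for no minimum fold and for the ranges of the batch term. For the other settings they are not given unless printed beside the count, so these counts do not show whether all clusters moved with the setting. With no minimum fold, 22 and 14 members passed with AAI in *Trp53(-/-)* and *Trp53(+/-)* kidneys. With the arrays of a comparison fitted alone, *Trp53(+/-)* against *Trp53(+/+)* AAI kidneys gave 0 and *Trp53(-/-)* against *Trp53(+/+)* water kidneys 3. Array weights gave 1 for *Trp53(-/-)* against *Trp53(+/+)* AAI kidneys. With at least 2-fold as well, *Trp53(-/-)* against *Trp53(+/-)* AAI kidneys gave 3 and *Trp53(+/-)* against *Trp53(+/+)* AAI kidneys 1. The unmoderated 2-group test of each gene with an unadjusted p under 0.05 and 2-fold gave the same 3 and 1 as counts, and 2 for *Trp53(-/-)* against *Trp53(+/+)* water kidneys. With Benjamini-Hochberg adjustment, a setting chosen after seeing the data, it gave 1, 0 and 0. The batch term, which rests on 1 *Trp53(+/+)* AAI array that is not identified, gave medians over the 5 placings that are no batch-corrected counts. They were 0 for AAI in *Trp53(+/-)* kidneys, 0 for either interaction with *Trp53(+/-)*, 1 for *Trp53(+/-)* against *Trp53(+/+)* and 0 for *Trp53(-/-)* against *Trp53(+/-)* AAI kidneys, and 0 for *Trp53(-/-)* against *Trp53(+/+)* water kidneys. *Trp53(+/-)* AAI against *Trp53(+/+)* water kidneys, which differ in genotype as well, gave 15, beside 2.25% of all transcript clusters. The cause of these differences was not tested, beyond the fewer arrays or stricter rule that a setting sets by itself.

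With each array left out in turn, AAI calls were 12 to 17, 3 to 12 and 17 to 21 in *Trp53(-/-)*, *Trp53(+/-)* and *Trp53(+/+)* kidneys. The interaction of *Trp53(-/-)* with *Trp53(+/+)* stayed at 0, that of *Trp53(+/-)* with *Trp53(+/+)* gave 2 to 6 (5 without *Trp53(-/-)* AAI replicate 5, *Trp53(+/-)* AAI replicate 4, *Trp53(+/+)* AAI replicate 4 or *Trp53(+/+)* water replicate 1, and 6 without *Trp53(+/-)* AAI replicate 5), and that of *Trp53(-/-)* with *Trp53(+/-)* gave 1 to 3 (1 without *Trp53(-/-)* AAI replicate 2 or *Trp53(+/-)* AAI replicate 3). In AAI kidneys, *Trp53(-/-)* against *Trp53(+/+)* gave 0 to 1 (1 without *Trp53(-/-)* AAI replicate 4 or 5 or *Trp53(+/+)* AAI replicate 1), *Trp53(+/-)* against *Trp53(+/+)* 1 to 4 (1 without *Trp53(+/-)* AAI replicate 1 or 3 or *Trp53(+/+)* AAI replicate 1, 4 or 5) and *Trp53(-/-)* against *Trp53(+/-)* 6 to 12. In water kidneys, *Trp53(-/-)* against *Trp53(+/+)* gave 1 to 2 and *Trp53(+/-)* against *Trp53(+/+)* 0 to 1, the higher counts without *Trp53(+/+)* water replicate 1. No shares over all transcript clusters are given for the counts with an array left out.

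Among the AAI changes of single members, signs turned only for values near 0 that were not called. Signs of single members were not followed across settings in the other contrasts, apart from *Msr1* with signals under 4 set to 4. *Lgals3* in *Trp53(+/+)* kidneys was 0.01042 with array weights and *Cd163* 0.01471 with the batch term. With an array left out, *Cd163* ran from -0.0483 to 0.194 in *Trp53(-/-)*, -0.122 to 0.0329 in *Trp53(+/-)* and -0.0820 to 0.0764 in *Trp53(+/+)* kidneys, *Fcgr2b* from -0.220 to 0.00300 in *Trp53(-/-)* and -0.158 to 0.0458 in *Trp53(+/+)*, *Gpnmb* from -0.0175 to 0.455 and *Lgals3* from -0.134 to 0.0579 in *Trp53(+/+)*, and *Csf1r* from -0.0176 to 0.0996 in *Trp53(+/-)* kidneys. Replicate numbers do not pair the arrays (median correlation -0.00597 over 75 pairs, -0.208 to 0.254). The replicate block gave 14, 7 and 19 AAI calls in *Trp53(-/-)*, *Trp53(+/-)* and *Trp53(+/+)* kidneys, interactions of 0, 3 and 2, and 8 in place of 9 for *Trp53(-/-)* against *Trp53(+/-)* AAI kidneys.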
